A study of Homo sapiens with 6 samples.

Results

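Neuropeptides and the proteins of the dense-core vesicles that store them were followed as 10 genes given by name: the granins VGF, SCG2, SCG3 and CHGB, the convertase chaperone SCG5, the prohormone convertases PCSK1 and PCSK2, and the peptide precursors NPY, GAL and VIP. Of these 10, 8 had a row with exactly 1 gene symbol among the 18404 genes measured. PCSK1 and PCSK2 were not analysed here. Each of the 8 had 1 row, so no choice between rows was needed.

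RNA came from BE(2)-C, an established line of human neuroblastoma cells in which MYCN is amplified. The 3 treated samples received 5 µM BIX01294, an inhibitor of the histone H3 lysine 9 methyltransferases encoded by EHMT2 and EHMT1, for 24 h, and the 3 control samples received the solvent, 0.05% DMSO, for 24 h. The DMSO content of the treated samples is not given in the labels. All 6 came from the same line, there was 1 array per sample, and the samples are described as independent, without saying whether they were separate cultures. P-values therefore measure the spread between these samples only.

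Dense-core vesicles are the organelles in which neurons and chromaffin cells keep peptide messengers. Granins are acidic proteins that aggregate in the trans-Golgi network and help to form the vesicle core; convertases and carboxypeptidases then cut prohormones at basic residues inside the vesicle, and calcium entry triggers release. Neuroblastomas arise from the sympathoadrenal lineage, which makes NPY, galanin, VIP and chromogranins.

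Values are log2 expression, 1 value per gene and array. Array medians lay between 6.94 and 7.01. With 1 array per sample, the spread between samples and the error of the arrays cannot be told apart. Differences are BIX01294 minus DMSO from a limma fit over all 18404 genes, with a standard error (SE) and a Benjamini-Hochberg adjusted p, and a gene was called higher or lower where that p was under 0.05. The treated samples had higher levels of 5 of the 8 genes (GAL, VGF, VIP, NPY and SCG2) and lower levels of 0. Over all genes, 12.9% were called higher and 10.7% lower (2379 and 1970 genes), a balance that moved to 2256 and 2282 with quantile normalization and to 2762 and 1536 after centring each array on its median. At an unadjusted p under 0.05 limma gave 5 genes higher and 1, CHGB, lower, and 5 of 15 alternative settings called CHGB lower. Over all 18404 genes the unadjusted threshold gave 3437 higher and 2979 lower. The 8 differences had a median of 0.31, against -0.01 over all genes, and ran from -0.15 to 1.14. The genes were chosen with earlier results of these data known, so their contrast with all genes need not be independent of that choice. In 6 of the 8 the groups of 3 arrays did not overlap, 5 with BIX01294 higher and 1 with it lower. Among all genes 40.1% did not overlap, 21.4% with BIX01294 higher and 18.7% with it lower. All 8 rows lay above the upper quartile of gene brightness, so a dim signal limited none of them. The shares over all genes include dim rows and are not matched to the 8 in brightness. When genes under the median level were left out, larger shares of the remaining genes were called in both directions. Part of the contrast between the 8 and all genes may therefore reflect brightness. Shares among genes as bright as the 8 were not computed, nor were the lists and neighbours below matched for brightness.

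**Figure D1:**
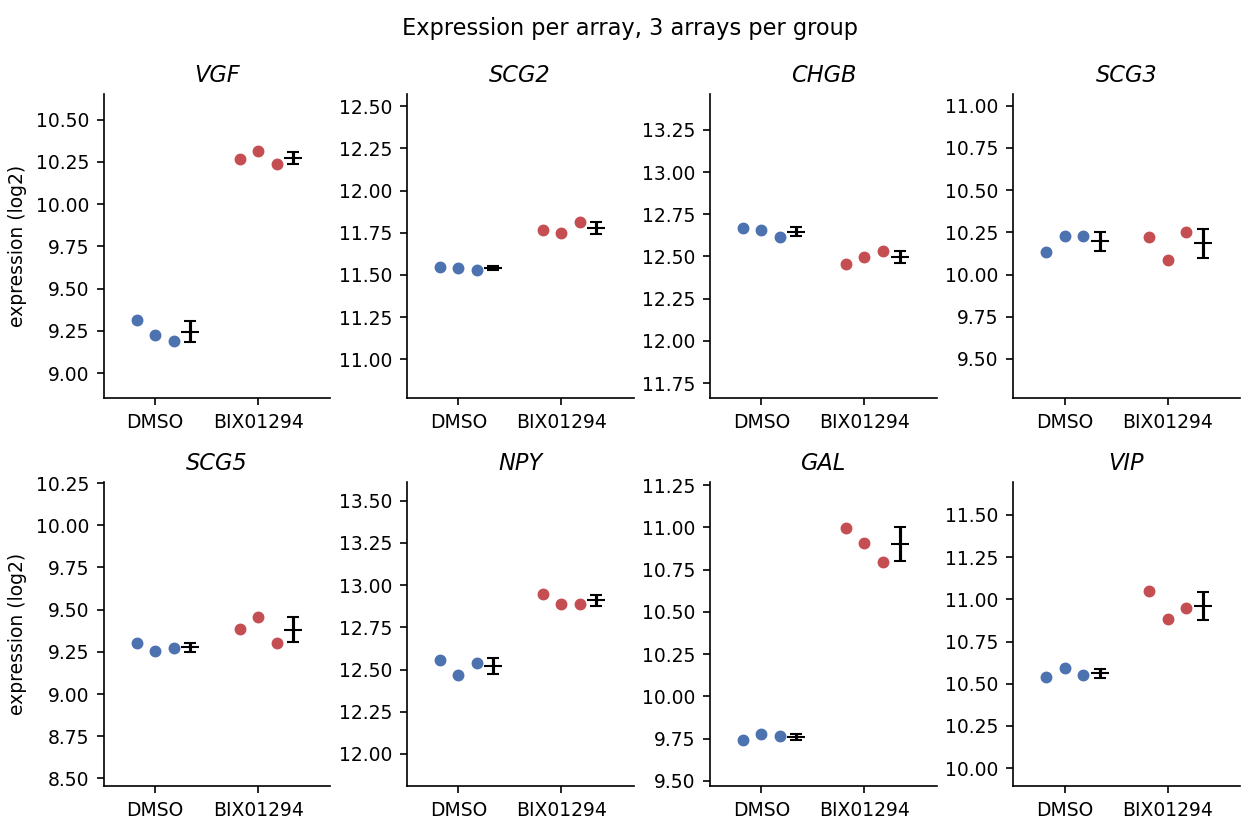
Log2 expression of the 8 measured genes on each array, with DMSO in blue and BIX01294 in red, replicates 1 to 3 from left to right, and the mean and SD of 3 arrays in black; every panel spans the same log2 range. The GAL and VGF points of the treated samples sit about 1 log2 unit above the controls, while the SCG3 points overlap.

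**Figure D2:**
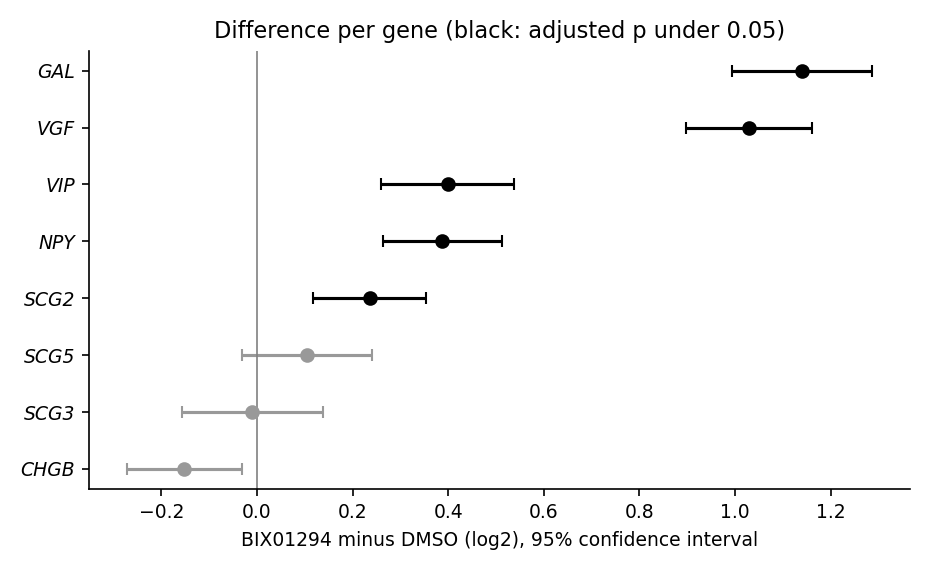
Difference BIX01294 minus DMSO on the log2 scale for the 8 genes, with the 95% confidence interval from limma; black marks an adjusted p under 0.05. GAL (1.14) and VGF (1.03) stand apart from VIP (0.40), NPY (0.39) and SCG2 (0.24), and SCG5, SCG3 and CHGB are grey.

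The peptide precursors come first. GAL encodes galanin, an inhibitory neuropeptide also made by sympathetic neurons and neuroblastomas. GAL measured 9.74, 9.77 and 9.77 in the 3 DMSO samples and 11.00, 10.91 and 10.80 in the 3 BIX01294 samples. The lowest treated sample stood well above the highest control, and the treated samples were more spread (SD 0.10, n = 3) than the controls (SD 0.02, n = 3). GAL rose 2.20-fold, a difference of 1.14 ± 0.064 (SE; adjusted p = 3.26e-05 in limma), and 0.152% of all genes had a larger rise.

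NPY encodes neuropeptide Y, a vasoconstrictor co-released with noradrenaline. It measured 12.56, 12.47 and 12.54 in DMSO and 12.95, 12.89 and 12.89 in BIX01294, so the groups did not overlap. NPY rose 1.31-fold (0.39 ± 0.054 SE; adjusted p = 0.00177 in limma). VIP, the precursor of vasoactive intestinal peptide, measured 10.54, 10.59 and 10.55 in DMSO and 11.05, 10.88 and 10.95 in BIX01294. VIP rose 1.32-fold (0.40 ± 0.060 SE; adjusted p = 0.00247 in limma), again with every treated sample above every control.

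Among the granins, VGF, whose product is cut into several secreted peptides, changed most. VGF measured 9.31, 9.23 and 9.19 in DMSO and 10.27, 10.31 and 10.24 in BIX01294, with a gap between the groups far wider than the spread inside either. It rose 2.04-fold (1.03 ± 0.057 SE; adjusted p = 3.22e-05 in limma). VGF and GAL were 2 of the 43 genes, 0.234% of all, that rose at least 2-fold.

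SCG2 encodes secretogranin II, the precursor of secretoneurin. SCG2 measured 11.55, 11.54 and 11.53 in DMSO and 11.76, 11.75 and 11.82 in BIX01294. The rise was small, 1.18-fold (0.24 ± 0.051 SE; adjusted p = 0.0122 in limma), but the groups were separate, since the controls lay within a narrow range. Without BIX01294 replicate 3, the highest sample, SCG2 differed by 0.22 and missed the threshold (adjusted p = 0.0502 in limma), and 4 of the 8 genes were called higher.

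CHGB, chromogranin B, went the other way without a call. It measured 12.67, 12.66 and 12.61 in DMSO and 12.46, 12.49 and 12.53 in BIX01294, so all treated samples lay below all controls. The difference was -0.15 ± 0.052 (SE), with a 95% confidence interval of -0.27 to -0.03 and an adjusted p of 0.0717 in limma. Quantile normalization gave -0.17 (adjusted p = 0.0478 in limma), a call, and centring each array on its median gave -0.12 (adjusted p = 0.198 in limma), none. CHGA, chromogranin A, named here after its value was seen because it is the other chromogranin, fell 1.14-fold. It measured 11.21, 11.22 and 11.24 in DMSO and 11.01, 11.04 and 11.03 in BIX01294 (-0.19 ± 0.050 SE; adjusted p = 0.0242 in limma). That call was lost without any single array other than DMSO replicate 3 (adjusted p from 0.0554 to 0.0740 in limma) and after centring (-0.16, adjusted p = 0.0676 in limma).

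SCG3, a granin that binds cholesterol-rich membrane and chromogranin A, did not pass the test. It measured 10.13, 10.23 and 10.23 in DMSO and 10.22, 10.09 and 10.25 in BIX01294, and the groups overlapped. The 95% confidence interval of its difference ran from -0.16 to 0.14 (adjusted p = 0.938 in limma). SCG5, also called 7B2, is the chaperone that brings the convertase encoded by PCSK2 to the vesicle in an inactive form. SCG5 measured 9.31, 9.25 and 9.27 in DMSO and 9.39, 9.46 and 9.30 in BIX01294, where BIX01294 replicate 3 fell inside the control range. Its difference of 0.10 had an interval of -0.03 to 0.24 (adjusted p = 0.256 in limma).

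Promoter sequences are shown because several of these genes are textbook targets of CREB, the cyclic AMP-responsive activator, and of REST, a repressor of neuronal genes. RefSeq promoter windows (GRCh38.p14; 250 bases before to 50 after a start site) were matched by symbol for 5 of the 8 genes. VGF is printed at chr7:101165570-101165819 (minus strand), VIP at chr6:152750547-152750796 (plus strand) and NPY at chr7:24283940-24284189 (plus strand), each as the 250 bases before the start site, and SCG3 as 26 bases from 9 to 34 after it, at chr15:51681511-51681536 (plus strand). Capitals mark the motifs searched on both strands: the cyclic AMP response element (CRE) TGACGTCA, its core TGACG, which lies inside the full element, the AP-1 site TGANTCA, and the left and right parts of RE1, the REST-binding element, TTCAGCACC and GGACAGCGC.
VGF: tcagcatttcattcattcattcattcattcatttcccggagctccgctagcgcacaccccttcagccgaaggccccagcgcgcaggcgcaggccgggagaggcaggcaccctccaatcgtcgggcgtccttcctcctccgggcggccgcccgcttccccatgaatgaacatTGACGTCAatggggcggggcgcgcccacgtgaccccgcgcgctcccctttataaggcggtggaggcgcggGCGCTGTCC
VIP: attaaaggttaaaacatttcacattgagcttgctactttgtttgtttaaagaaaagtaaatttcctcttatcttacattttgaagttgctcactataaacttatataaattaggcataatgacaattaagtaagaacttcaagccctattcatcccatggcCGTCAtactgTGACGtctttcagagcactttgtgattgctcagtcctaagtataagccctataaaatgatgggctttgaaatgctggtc
NPY: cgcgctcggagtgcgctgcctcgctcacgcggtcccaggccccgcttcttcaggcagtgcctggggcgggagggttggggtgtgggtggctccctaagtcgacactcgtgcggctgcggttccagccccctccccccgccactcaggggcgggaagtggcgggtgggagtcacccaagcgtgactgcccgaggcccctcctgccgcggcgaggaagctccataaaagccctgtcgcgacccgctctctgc
SCG3: TTCAGCACCcacagggcGGACAGCGC

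The full CRE was found in VGF, with its first base 79 bases before the start site, and in 1.85% of all 35116 windows. The CRE core was found in 4 of the 5 windows (VGF, VIP, SCG3 and SCG5) and in 24.6% of all windows. VIP held 2 cores, on opposite strands and 5 bases apart. The right part of RE1 was found in VGF, on the opposite strand and ending at the base before the start site, and in SCG3, against 0.581% of all windows. SCG3 also held the left part, found in 0.376% of all windows, with 8 bases between the parts. The AP-1 site was found in 0 of the 5 windows and in 7.71% of all windows. NPY held none of these motifs in its window. Only exact matches were counted. A near match to the left part of RE1, which follows the right part in VGF just after the start site, was therefore not marked. Any link between the motifs and the differences was not tested. The windows differed in composition: 67.7% of the VGF bases, 71.0% of the NPY bases and 37.3% of the VIP bases were G or C, against a median of 58.7% over all windows. The matches describe these letters only.

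By the distance between 6-array profiles, each taken as deviations from the gene's own mean, the genes nearest to GAL were ANO3 (distance 0.077 on the log2 scale), EMP3 (0.13) and SQSTM1 (0.13). EMP3 and SQSTM1 rose 2.30-fold and 2.06-fold, and ANO3, a dim row under the lower quartile of gene brightness, rose by 1.16 on the log2 scale. All 3 kept their calls in every setting that tested them.

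Genes of the same pathway, in 5 lists, moved in both directions, beside 12.9% called higher and 10.7% called lower over all genes. In the list of other granins and prohormone-processing enzymes, 3 of 15 were called higher and 3 lower, with a median difference of 0.06. QPCT, glutaminyl cyclase, which caps peptides with pyroglutamate, measured 8.38, 8.33 and 8.16 in DMSO and 8.84, 8.91 and 8.84 in BIX01294. It rose 1.49-fold (0.57 ± 0.070 SE; adjusted p = 0.000972 in limma). The protease cathepsin L (CTSL) rose 1.42-fold and PCSK7, a convertase of the trans-Golgi network, 1.28-fold. CPD, a carboxypeptidase that trims basic residues in the Golgi, fell 1.25-fold, from 9.97 ± 0.09 in DMSO to 9.65 ± 0.06 in BIX01294 (SD, n = 3 each). The other 2 that fell were CHGA and the convertase PCSK6. The 3 falls became 1 after centring, and also on leaving out DMSO replicate 1 or 2 or BIX01294 replicate 1 or 3 alone. The PCSK6 call was also lost without DMSO replicate 3 (-0.24, adjusted p = 0.0595 in limma), with quantile normalization (-0.19, adjusted p = 0.0594) and with trend and robust estimation (adjusted p = 0.0612), in all in 8 of 14 settings. CPE, the main carboxypeptidase of dense-core vesicles, differed by -0.08 and PAM, the amidating enzyme, by 0.14, neither past the threshold. The CPE row lay under the lower quartile of gene brightness.

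**Figure D3:**
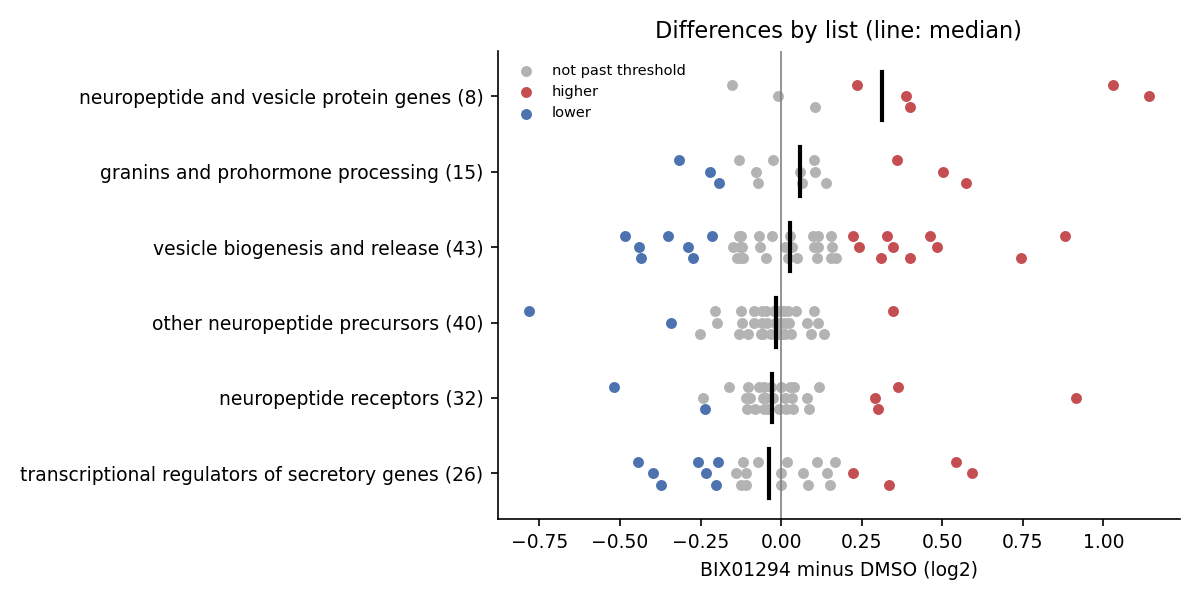
Difference BIX01294 minus DMSO on the log2 scale for the 8 genes and the measured genes of 5 related lists, 1 point per gene, red where called higher, blue where called lower and grey otherwise, with a black line at each list's median. The medians of the 5 lists lie between -0.04 and 0.06, and that of the 8 genes at 0.31. The genes and lists were chosen with earlier results of these data known.

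Genes of vesicle biogenesis and release were called higher in 10 of 43 and lower in 7, with a median difference of 0.03. CYB561, the cytochrome that passes electrons into the vesicle lumen for dopamine beta-hydroxylase and PAM, measured 9.75, 9.80 and 9.67 in DMSO and 10.62, 10.68 and 10.58 in BIX01294. CYB561 rose 1.84-fold (0.88 ± 0.060 SE; adjusted p = 7.09e-05 in limma), with a wide gap between the groups. CPLX2, complexin 2, a SNARE-binding regulator of fusion, measured 8.53, 8.61 and 8.64 in DMSO and 9.37, 9.33 and 9.31 in BIX01294. It rose 1.68-fold (0.74 ± 0.055 SE; adjusted p = 0.000107 in limma). The vesicle-docking GTPase RAB27A rose 1.40-fold, from 8.38 ± 0.10 in DMSO to 8.86 ± 0.06 in BIX01294 (SD, n = 3 each). The SNARE protein VAMP4, found on the trans-Golgi network and immature granules, fell 1.40-fold, from 10.09 ± 0.08 in DMSO to 9.61 ± 0.09 in BIX01294 (SD, n = 3 each).

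Other genes of neuropeptide precursors and secreted hormones were mostly without a call: 1 of 40 was called higher, 2 were called lower, and 37 did not pass. The median difference was -0.02, and 16 of the 40 rows lay under the lower quartile of gene brightness, where changes could be missed. NPFF, a precursor of peptides that modulate opioid signalling, measured 8.81, 8.91 and 8.64 in DMSO and 8.01, 8.06 and 7.95 in BIX01294. NPFF fell 1.72-fold (-0.78 ± 0.077 SE; adjusted p = 0.000363 in limma). The secreted hormone STC1 fell 1.27-fold, from 7.62 ± 0.0034 in DMSO to 7.28 ± 0.07 in BIX01294 (SD, n = 3 each). CRH, corticotropin-releasing hormone, rose 1.27-fold, from 6.61 ± 0.11 in DMSO to 6.95 ± 0.12 in BIX01294 (SD, n = 3 each). The CRH call was lost when replicate 1 or 3 of DMSO or replicate 1 of BIX01294 was left out, with differences of 0.32, 0.31 and 0.27 and adjusted p from 0.0503 to 0.0631 in limma, so that 0 of 40 were then higher.

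Receptors and the accessory proteins RAMP1, RAMP2 and RAMP3, listed with them, were called higher in 4 of 32 and lower in 2, with a median difference of -0.03. Of the 32 rows, 11 lay under the lower quartile of gene brightness, where changes could be missed. They included 3 of the 8 receptors for NPY, galanin and VIP in the list. Of these 8, a subset not set as a list beforehand, 1 was called higher and 0 lower. In limma the counts were the same at an unadjusted p under 0.05, where 3437 of all 18404 genes were higher and 2979 lower. The receptor called higher was GALR1, the galanin receptor coupled to inhibitory G proteins. It measured 6.30, 6.50 and 6.18 in DMSO and 6.65, 6.76 and 6.68 in BIX01294. GALR1 rose 1.29-fold (0.36 ± 0.085 SE; adjusted p = 0.0168 in limma). Its call was lost without DMSO replicate 1 (0.35), BIX01294 replicate 2 (0.33) or BIX01294 replicate 3 (0.37), with adjusted p from 0.0530 to 0.0564 in limma. GALR2 differed by -0.05 and GALR3 by 0.04, neither past the threshold. C3AR1, the complement C3a receptor, which a VGF-derived peptide also activates, measured 5.64, 5.73 and 5.74 in DMSO and 6.75, 6.37 and 6.74 in BIX01294. It differed by 0.92 ± 0.10 (SE; adjusted p = 0.000687 in limma), and each control value lay below the lower quartile of its array, so no fold is given. ADCYAP1R1, the receptor for the VIP-related peptide PACAP, fell 1.43-fold, from 8.68 ± 0.09 in DMSO to 8.16 ± 0.08 in BIX01294 (SD, n = 3 each), and the opioid receptor OPRM1 rose 1.23-fold. The remaining calls, RAMP1 (0.29) and the opioid receptor OPRD1 (-0.24), are named because the counts are small. The 2 receptor falls became 1 when any of 4 arrays was left out alone (replicate 1 or 2 of DMSO, replicate 1 or 3 of BIX01294), where OPRD1 lost its call (adjusted p from 0.0619 to 0.0759 in limma).

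**Figure D4:**
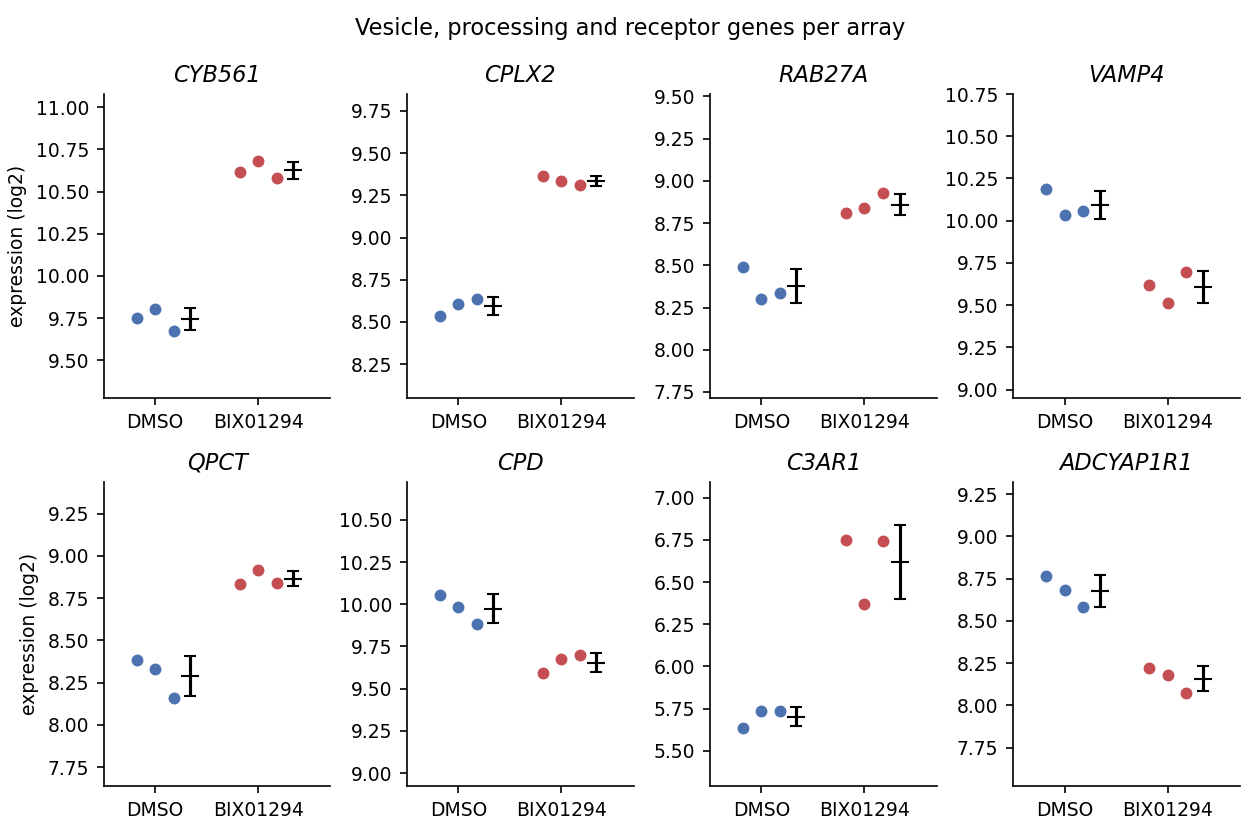
Log2 expression of 8 vesicle, processing and receptor genes on each array, DMSO in blue and BIX01294 in red, replicates 1 to 3 from left to right, with the mean and SD of 3 arrays in black; every panel spans the same log2 range. CYB561, CPLX2, RAB27A, QPCT and C3AR1 lie higher and VAMP4, CPD and ADCYAP1R1 lower in the treated samples, with no overlap.

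Among transcriptional regulators linked to secretory genes, 4 of 26 were called higher and 7 lower, with a median difference of -0.04. JUN, a subunit of AP-1, rose 1.51-fold, from 8.22 ± 0.11 in DMSO to 8.82 ± 0.07 in BIX01294 (SD, n = 3 each), and the immediate early factor EGR1 rose 1.46-fold. The orphan nuclear receptor NR4A1 fell 1.32-fold. The other two called higher were ISL1 (0.34) and the coactivator CREBBP (0.22), which lost its call without DMSO replicate 1 (adjusted p = 0.0540 in limma). REST differed by -0.12 ± 0.13 (SE; adjusted p = 0.570 in limma) and its row lay under the lower quartile of gene brightness. Of 9 genes of REST and its partners, 4 were called lower (SIN3A, HDAC1, RCOR2 and RCOR1) and 0 higher, and limma gave the same counts at an unadjusted p under 0.05. This subset was formed after the values were seen, and over all genes 10.7% were lower and 12.9% higher. Of 6 genes of CREB and its coactivators, a subset formed in the same way, 1 (CREBBP) was called higher and 0 lower. At an unadjusted p under 0.05 in limma 3 of the 6 were higher and 0 lower. Over all 18404 genes the unadjusted threshold gave 3437 higher and 2979 lower. SIN3A, the scaffold of a histone deacetylase complex, fell 1.36-fold, from 9.89 ± 0.08 in DMSO to 9.45 ± 0.08 in BIX01294 (SD, n = 3 each). HDAC1, RCOR2 and RCOR1, named because the count is small, differed by -0.37, -0.26 and -0.20. RCOR1 lost its call without any single array other than DMSO replicate 3 (adjusted p from 0.0536 to 0.105 in limma). RCOR2 lost it when replicate 1 or 2 of DMSO, or replicate 1 or 3 of BIX01294, was left out (adjusted p from 0.0601 to 0.101 in limma). The 7 falls of the whole list became 3 when replicate 1 or 2 of DMSO or replicate 3 of BIX01294 was left out, and 4 without replicate 1 of BIX01294. EHMT1 differed by 0.11 ± 0.059 (SE; adjusted p = 0.226 in limma) and EHMT2 by 0.00037 ± 0.057 (SE; adjusted p = 0.998 in limma).

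These are bulk samples, in which fewer cells of a type and less RNA per cell cannot be told apart. All 9 measured markers of noradrenergic neuroblastoma, of 11 listed, lay above the upper quartile of gene brightness. Of these 9, 1 was called higher and 4 lower, and their log2 values summed to between 102.0 and 102.2 on the DMSO arrays and between 101.2 and 101.5 on the BIX01294 arrays. Beside this and the marker counts below, 12.9% of all genes were called higher and 10.7% lower. Those shares are not matched to the markers in brightness. STMN2, GATA3, PHOX2A and CHGA fell by 0.46, 0.23, 0.20 and 0.19, and ISL1 rose by 0.34. GATA3 and PHOX2A lost their calls when replicate 1 or 2 of DMSO or replicate 3 of BIX01294 was left out (adjusted p from 0.0610 to 0.134 in limma), and PHOX2A also without replicate 3 of DMSO (adjusted p = 0.0865) or replicate 1 of BIX01294 (adjusted p = 0.109). Of 11 mesenchymal markers 2 were called higher and 2 lower, with sums of 85.6 to 86.3 in DMSO and 85.3 to 85.8 in BIX01294. VIM rose by 0.82 and CD44 by 0.49, and DCN fell by 1.50 and LUM by 0.62. Of 3 measured Schwann cell markers of 6 listed, S100B was called higher (0.42) and none lower, with sums of 19.8 to 19.9 in DMSO and 20.1 to 20.4 in BIX01294. The other two, ERBB3 (-0.02) and SOX10 (0.01), did not pass the test, and the S100B call was lost without BIX01294 replicate 1 (adjusted p = 0.0514 in limma) or 3 (adjusted p = 0.0617 in limma). No detection call was given, so no marker could be called absent. The part of cell composition in the differences of the 8 genes was not tested.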

How the data were processed

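Total RNA of 6 samples, 3 per group, was labelled and measured on Affymetrix gene-level arrays, per the labels' protocols. The deposited table holds log2 values, as read from the values themselves, for 32321 rows. The submitters' processing notes name Partek alone. How the authors corrected background, normalized between arrays and summarized probes is not given in the sources used here. If they scaled the arrays to each other, a change common to most transcripts is hidden.

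Of the rows, 19158 had 1 gene symbol in the platform annotation. Names were updated through Entrez identifiers to RefSeq (GRCh38.p14) for 19128 of these rows, and the row with the highest mean was kept per gene (18404 genes). The deposited values went unaltered into limma 3.58.1 (R 4.3.3), with treatment as the only term, two-sided, with Benjamini-Hochberg adjustment over all genes. On simulated data for these 18404 genes, with 200 changed genes and normal noise, the fit found 69% of changes of 0.5 (log2) and 96.5% of changes of 1. Of its calls, 5.45% were false. The measured arrays gave 4349 called genes, 23.6% of all, so these shares need not hold for them. Dim genes were kept.

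The members, lists and rules were chosen with earlier results of these data known. Named are all members, up to 4 called genes per list by largest difference, REST, EHMT1, EHMT2 and the 3 genes nearest to the member with the largest difference. Further genes were named once their values had been seen. There were 15 alternatives: quantile normalization, centring, 2 filters on dim genes, the mean of a gene's rows, all single-symbol rows, eBayes with trend and robust options, weighted arrays, a block for the replicate number, and each array left out in turn.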

Additional observations from a re-analysis of the deposited data

How the results depend on the processing

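GAL, VGF, NPY and VIP kept their direction and call in all 15 alternatives, with differences of 1.08 to 1.19, 0.99 to 1.06, 0.36 to 0.42 and 0.35 to 0.44. SCG3 and SCG5 passed in none. The count of lower genes among the 8 was 1 (CHGB) instead of 0 with quantile normalization, with either filter on dim genes, with trend and robust estimation and with array weights. In the same order, these settings called 2282, 2147 (of 13803 kept), 1899 (of 9202 kept), 2333 and 2321 of all genes lower. Leaving out each array in turn gave 4 to 5 higher and 0 lower, beside 1699 to 1910 higher and 1318 to 1818 lower over all genes. After centring, 1 processing gene and 4 regulators were lower, beside 1536 over all genes. With genes under the median level left out, 0 other precursors were higher and 1 lower, of 10 tested. In the receptor list 2 genes were then higher, of 7 tested. Leaving out single arrays gave 1 to 2 lower processing genes, 0 to 1 higher precursors, 1 to 3 lower genes of the receptor list and 3 to 6 lower regulators. Both groups carry replicate numbers 1 to 3, but same-numbered arrays did not deviate together (correlations of deviations across genes 0.19, -0.18 and 0.05), and DMSO replicates 2 and 3 correlated best with another number. With the replicate block, 5 of the 8 genes were higher and 0 lower, 4 regulators were lower, and 1987 genes were higher and 1654 lower over all. CHGA, PHOX2A, RCOR1, RCOR2, LYSMD2 and ARHGAP11A lost their calls with the block.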

Other observations

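The nearest measured protein-coding genes on either side of the 8 genes, by order in RefSeq, were examined after the results above were known. Of these 16 neighbours 5 were called higher and 1 lower, with a median difference of 0.02, beside 12.9% higher and 10.7% lower over all genes. AP1S3, beside SCG2, rose by 0.64, TRMT6, beside CHGB, by 0.46 and FBXO5, beside VIP, by 0.38 on the log2 scale. TESMIN, beside GAL, fell by 0.37, while PPP6R3 on the other side of GAL differed by 0.01. Neither AP1S1 (0.02) nor NAT16 (-0.10), beside VGF, passed the test. LYSMD2, beside SCG3, and ARHGAP11A, beside SCG5, rose by 0.22 and 0.26, with calls that were both lost without any single array other than BIX01294 replicate 2 (adjusted p from 0.0597 to 0.146 in limma). The ARHGAP11A call was also lost after quantile normalization (adjusted p = 0.0645 in limma).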
